A study of Gossypium hirsutum with 6 samples.

Results

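The circadian clock of plants is built from transcription factors that follow each other through the day. In Arabidopsis, LHY and CCA1 are MYB-like factors that peak around dawn and repress genes of the later day. RVE8 and RVE6 are relatives of LHY that activate evening genes, while the pseudo-response regulators PRR9, PRR7, PRR5 and TOC1 are repressors that are expressed one after another between morning and evening and in turn hold LHY and CCA1 down. RVE1 carries clock timing to auxin production, and PRR3 stabilizes TOC1.

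These factors were followed here in seedlings of upland cotton (*Gossypium hirsutum*), strain CCRI24, wild type, which is a tetraploid with an A and a D subgenome. The members are all rows of the deposited expression table whose matched Arabidopsis locus is 1 of 10 (AT1G01060 for LHY, AT2G46830 for CCA1, AT5G17300 for RVE1, AT5G52660 for RVE6, AT3G09600 for RVE8, AT2G46790 for PRR9, AT5G02810 for PRR7, AT5G24470 for PRR5, AT5G60100 for PRR3 and AT5G61380 for TOC1). The rule found 35 rows among 70478 genes. They carry 7 of the 10 loci: LHY has 7 copies, RVE6 has 5, RVE8 has 2, PRR9 has 2, PRR7 has 8, PRR5 has 5 and TOC1 has 6. No row matched CCA1, RVE1 or PRR3, and these loci are not analysed here. The names are those of the closest Arabidopsis gene, so a copy called LHY may stand as near to CCA1 in descent.

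AZD is an inhibitor that competes with ATP at the TOR kinase. At an age of 4 d, seedlings were placed on MS medium with 5 μM AZD or on MS medium with its solvent DMSO. They stayed there for 24 h (the labels give an age of 5 d). They were kept at 25 °C in 16 h light and 8 h dark, and the time of day at harvest is not given in the sources used here. Each treatment has 3 libraries, described as biological repeats. Values are FPKM, that is fragments scaled to transcript length and to the mapped total of the library, which allow levels to be compared between genes.

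The 3 libraries labelled AZD were more alike (Spearman correlations of 0.920 to 0.933 across genes, which are not independent replicates) than the 3 labelled DMSO (0.880 to 0.904), and DMSO replicate 1 stood apart from all others on the second principal component (20.8% of the variance). The number of fragments behind a value is not known. The step between low values put the depth of the libraries between 0.925 and 1.47 times that of DMSO replicate 1. The direction of each difference rests on the sample labels. The sources used here do not give the same direction: for nearly all the genes looked up that have a published sign, the deposited values by their labels run the other way, and which is right cannot be settled from these files. The published signs include those of selected genes that the authors also measured by quantitative PCR, a separate assay. Every lower or higher given here would turn round if the labels of both groups were exchanged. The sources used here name seedlings and do not say whether RNA came from the whole plant. In such material, less RNA of a gene per cell and fewer cells that express it cannot be told apart. Among 15 antenna protein loci fixed as markers of green tissue, 12 had rows, with a summed level of 29634 to 32962 FPKM in the libraries labelled AZD and of 7871 to 14426 FPKM in those labelled DMSO. None of the 12 was at 0, and 20 of their 37 tested rows were higher under AZD (1.89% of all tested genes were). Root markers (13 of 16 loci with rows, none of them at 0) summed to 19.4 to 32.4 FPKM under AZD and to 23.9 to 49.96 FPKM under DMSO. Only 14 of the 65 root rows were tested, of which 1 was lower (2.80% of all tested genes were) and 0 higher. The part of both marker sets in the results that follow was not tested.

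By these labels, 6 of 7 LHY copies, both PRR9 copies and 2 of 5 PRR5 copies were lower in the seedlings labelled AZD. The 2 PRR5 calls did not hold with any 1 library left out. No copy of RVE6, RVE8, PRR7 or TOC1 passed the test. Over all tested genes 2.80% were called lower and 1.89% higher, so that 0 calls in so few copies lie near these shares. A copy was tested where its mean over the 6 libraries reached 0.5 FPKM. This held for 34 of the 35 members, from PRR7 Gh_D04G0791 just inside, at a mean of 0.5005 FPKM, while TOC1 Gh_D02G1297 was listed at 0 in every library. Of the 34 copies, 10 were lower in the libraries labelled AZD at an adjusted p under 0.05 (limma on log2(FPKM + 0.5), two-sided, Benjamini-Hochberg over 43158 genes), against 2.80% of all tested genes called lower. LHY contributed 6 of them, PRR9 contributed 2 and PRR5 contributed 2. None of the 34 was higher by limma (1.89% of all tested genes were), and at an unadjusted p under 0.05 there were 15 lower and 1 higher. The share of all tested genes at that unadjusted p is not given, so counts at this threshold, here and below, lack a background. The median log2 fold change of the 34 copies was −0.35, against −0.01 over all tested genes, and 26 of them had a value below 0 (50.7% of all tested genes did). In 16 copies every library labelled AZD lay below every one labelled DMSO (15.5% of all tested genes), and in 3 copies every one lay above (14.5%).

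**Figure D1:**
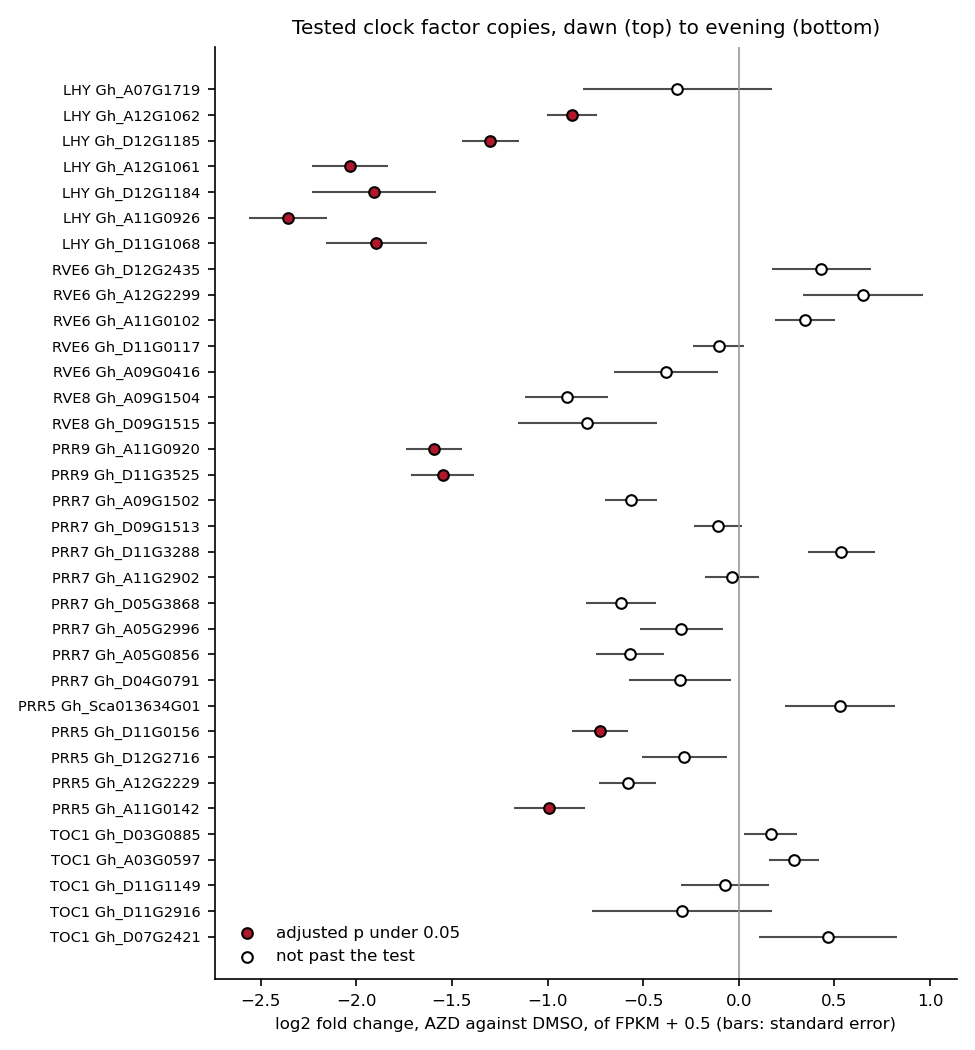
Log2 fold change (x axis, AZD against DMSO, on the log2(FPKM + 0.5) scale) of the 34 tested copies, ordered from dawn genes at the top to evening genes at the bottom. Points are limma estimates from 3 libraries a group, bars are 1 standard error, and filled points are the 10 copies past the test. They are copies of LHY, PRR9 and PRR5, from −2.36 to −0.73.

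Among the dawn factors, LHY was lower in 6 of its 7 copies. Gh_A11G0926 had 0.510, 0.303 and 0.668 FPKM in AZD replicates 1, 2 and 3, against 4.50, 5.45 and 3.805 FPKM in DMSO replicates 1, 2 and 3. The groups were far apart, with group means that differed 9.28-fold, and no member had a larger log2 fold change than its −2.36 (standard error 0.20, adjusted p = 0.00657, limma). Gh_D11G1068 had 0.351, 0.464 and 0.864 FPKM under AZD, against 2.59, 4.55 and 3.20 FPKM under DMSO (log2 fold change −1.90, standard error 0.26, adjusted p = 0.0206, limma). At these levels the added 0.5 FPKM pulls the fold change towards 0, so that the ratio of group means was 6.15 for this copy.

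The IDs of 4 further LHY copies form consecutive pairs, Gh_A12G1061 with Gh_A12G1062 and Gh_D12G1184 with Gh_D12G1185. In both pairs the copy with less RNA had the larger log2 fold change in size. Gh_A12G1061 stood at 2.44, 2.03 and 3.12 FPKM under AZD and at 11.5, 14.5 and 9.78 FPKM under DMSO (log2 fold change −2.04, standard error 0.20, adjusted p = 0.00836, limma). Gh_A12G1062 stood at 11.4, 11.5 and 10.4 FPKM under AZD and at 21.7, 22.4 and 18.3 FPKM under DMSO (−0.87, standard error 0.13, adjusted p = 0.0239). In the D subgenome, Gh_D12G1184 had 1.63, 0.598 and 1.47 FPKM under AZD and 4.87, 8.25 and 4.67 FPKM under DMSO (−1.91, standard error 0.32, adjusted p = 0.0327). Its neighbour Gh_D12G1185 had 6.44, 6.24 and 5.43 FPKM under AZD and 14.6, 18.5 and 13.8 FPKM under DMSO (−1.30, standard error 0.15, adjusted p = 0.0129). Whether the 2 IDs of a pair are separate genes or pieces of 1 gene model cannot be told from the table, and reads shared between near-identical copies may have been split among them. The difference in fold change within a pair was not tested.

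The most abundant LHY copy was not past the test. Gh_A07G1719 had 35.1, 38.5 and 13.7 FPKM under AZD, against 29.1, 57.0 and 22.1 FPKM under DMSO. The groups overlapped, and each group spread over more than 2-fold (log2 fold change −0.32, standard error 0.49, adjusted p = 0.746, limma). The value was 0.14 without AZD replicate 3 and 0.06 without DMSO replicate 2, so that its sign is not settled. Because this copy held 57.0% of the LHY FPKM under AZD and 36.6% under DMSO, it sets much of the locus sum. Summed over 7 copies, LHY stood at 57.8, 59.6 and 35.7 FPKM under AZD, against 88.9, 131 and 75.7 FPKM under DMSO. Without this copy, which was set aside after its values were seen, the sum was 21.9 ± 0.782 FPKM under AZD and 62.3 ± 10.2 FPKM under DMSO (SD, n = 3 each), that is 35.2% of the DMSO mean.

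**Figure D2:**
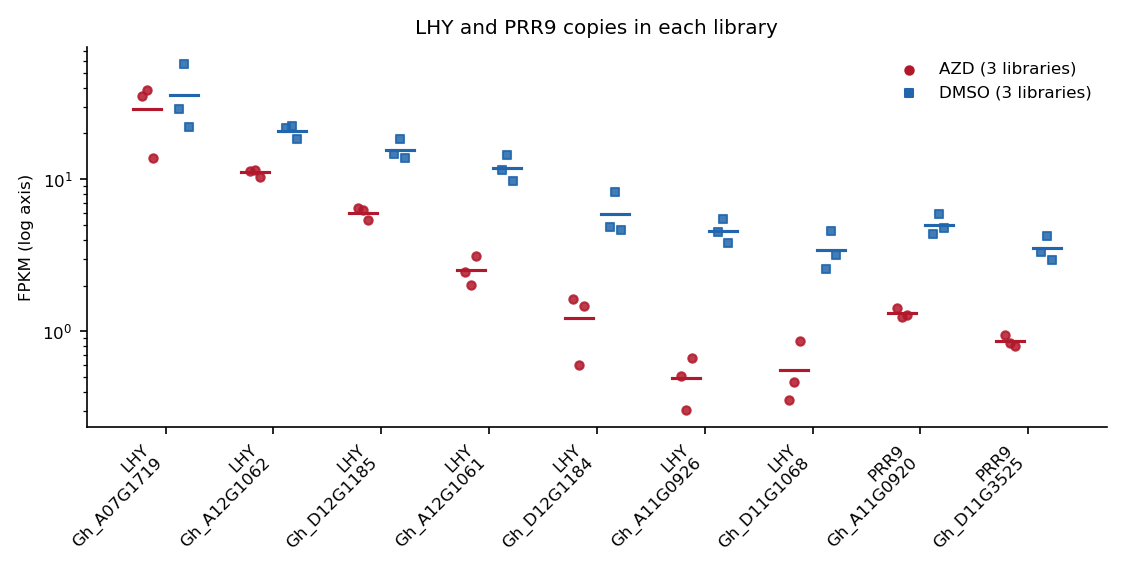
FPKM (y axis, logarithmic) of the 7 LHY and 2 PRR9 copies in each library, with AZD (circles) left of DMSO (squares) and horizontal lines at the group means. The groups do not overlap in 6 LHY copies and both PRR9 copies, whereas they overlap in Gh_A07G1719. Of all tested genes, 15.5% had every AZD library below every DMSO library.

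RVE8, which in Arabidopsis switches on evening genes together with LNK coactivators, lay lower under AZD in every library of both copies, but neither copy passed the test. Gh_A09G1504 had 2.26, 2.15 and 2.14 FPKM under AZD, against 3.19, 6.05 and 4.68 FPKM under DMSO (log2 fold change −0.90, standard error 0.22, adjusted p = 0.0703, limma). The 3 AZD values lie close together, and the DMSO values span more than the difference between the group means. Without DMSO replicate 1, the lowest of its group, the copy was past the test (adjusted p = 0.0199), and leaving out any other library gave adjusted p up to 0.213. The second copy, Gh_D09G1515, averaged 0.644 ± 0.464 FPKM under AZD and 1.37 ± 0.323 FPKM under DMSO (SD, n = 3 each, adjusted p = 0.251).

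RVE6, which acts with RVE8 in Arabidopsis, had no copy past the test in 5 (limma, also 0 at an unadjusted p under 0.05), with log2 fold changes of −0.38 to 0.65. Its most abundant copy, Gh_D12G2435, had 13.7, 15.5 and 13.3 FPKM under AZD, against 15.2, 7.26 and 10.01 FPKM under DMSO (log2 fold change 0.43, standard error 0.26, adjusted p = 0.374). DMSO replicate 1 lay at the level of the AZD libraries and the other 2 lay below them. The same held for Gh_A12G2299, at 10.5, 12.5 and 14.5 FPKM under AZD and at 12.6, 5.18 and 6.96 FPKM under DMSO. Without DMSO replicate 1 this copy was called higher (log2 fold change 0.99, adjusted p = 0.0483). In that setting 1814 of 43158 tested genes were called higher, against 817 with all 6 libraries.

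PRR9, the morning member of the pseudo-response regulators and in Arabidopsis a repressor of LHY and CCA1, was lower in both copies. Gh_A11G0920 had 1.43, 1.25 and 1.28 FPKM under AZD, against 4.37, 5.90 and 4.81 FPKM under DMSO (log2 fold change −1.60, standard error 0.15, adjusted p = 0.00744, limma). Gh_D11G3525 had 0.9503, 0.834 and 0.801 FPKM under AZD, against 3.34, 4.23 and 2.96 FPKM under DMSO (log2 fold change −1.55, standard error 0.16, adjusted p = 0.0101). In both copies the DMSO libraries spread over a wider range than the AZD libraries, and the gap between the groups was wider still. Summed over both copies, PRR9 stood at 2.18 ± 0.177 FPKM under AZD and 8.54 ± 1.38 FPKM under DMSO (SD, n = 3 each), the largest relative difference of the 7 loci (25.5% of the DMSO mean).

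PRR7, the midday repressor, had the most copies and no call by limma. At an unadjusted p under 0.05 (limma), 3 copies were lower and 1 higher, with no share over all tested genes beside these counts. Its most abundant copy, Gh_A09G1502, had 8.76, 8.21 and 9.15 FPKM under AZD, against 14.9, 13.2 and 11.4 FPKM under DMSO (log2 fold change −0.56, standard error 0.14, adjusted p = 0.0718). Gh_D11G3288 ran the other way, with 11.1, 10.7 and 11.6 FPKM under AZD and 9.02, 8.14 and 5.80 FPKM under DMSO (log2 fold change 0.54, standard error 0.18, adjusted p = 0.138). In both the groups did not overlap. The other 6 copies had log2 fold changes of −0.62 to −0.04. Since copies lay on both sides, the sum over the 8 copies was 44.3 ± 0.901 FPKM under AZD and 49.8 ± 5.83 FPKM under DMSO (SD, n = 3 each), with overlapping groups.

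PRR5, which follows in the afternoon, was lower in 2 of 5 copies. Gh_A11G0142 had 2.08, 1.26 and 1.77 FPKM under AZD, against 3.45, 4.50 and 3.61 FPKM under DMSO (log2 fold change −0.99, standard error 0.19, adjusted p = 0.0410, limma). Gh_D11G0156 had 3.31, 3.26 and 2.67 FPKM under AZD, against 6.28, 5.13 and 4.87 FPKM under DMSO (log2 fold change −0.73, standard error 0.15, adjusted p = 0.0477). The groups overlapped in neither copy, but both lie close to the threshold and neither passed with any 1 library left out (adjusted p of 0.0503 to 0.125 and of 0.0613 to 0.156).

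The most abundant PRR5 copy stands on an unplaced scaffold by its ID. Gh_Sca013634G01 had 17.1, 16.2 and 15.9 FPKM under AZD, against 17.9, 7.96 and 9.77 FPKM under DMSO (log2 fold change 0.53, standard error 0.29, adjusted p = 0.324, limma). DMSO replicate 1 was again on the AZD side. Without that library 1814 of 43158 tested genes were called higher, and this copy was among them (log2 fold change 0.86, adjusted p = 0.0263). It held 61.2% of the PRR5 FPKM under AZD and 41.0% under DMSO. The summed PRR5 level was 26.8 ± 1.47 FPKM under AZD and 29.0 ± 6.55 FPKM under DMSO (SD, n = 3 each). This sum does not show the difference between the groups seen in the 2 copies past the test.

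TOC1, the evening repressor that closes the loop on LHY in Arabidopsis, had no copy past the test (limma, also 0 of 5 at an unadjusted p under 0.05). Gh_D03G0885 had 11.8, 12.1 and 12.8 FPKM under AZD, against 12.6, 10.6 and 9.53 FPKM under DMSO, with overlapping groups (log2 fold change 0.17, standard error 0.14, adjusted p = 0.520). The other 4 tested copies had log2 fold changes of −0.30 to 0.47. The sum over all copies was 34.7, 31.9 and 35.8 FPKM under AZD, against 31.8, 31.0 and 29.1 FPKM under DMSO. The groups touch without overlapping, and the AZD mean was 111% of the DMSO mean.

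**Figure D3:**
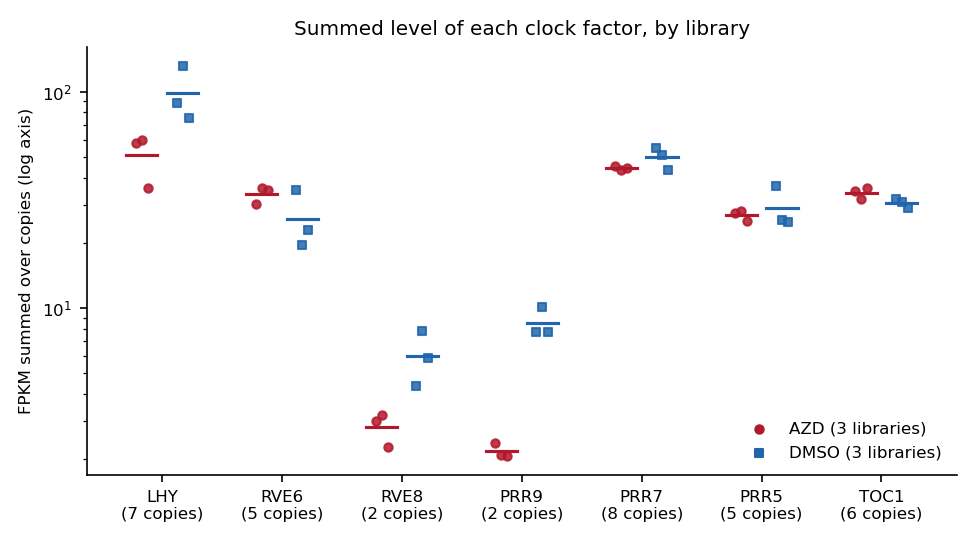
FPKM summed over the copies of each of the 7 loci (y axis, logarithmic) in each library, with AZD (circles) left of DMSO (squares) and lines at the group means. The AZD libraries lie below the DMSO libraries for LHY, RVE8 and PRR9, lie just above them for TOC1, and overlap with them for RVE6, PRR7 and PRR5.

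With TOC1 as the evening standard within each library, the LHY sum was 1.67, 1.87 and 0.997 times the TOC1 sum under AZD, against 2.80, 4.21 and 2.60 times under DMSO. The PRR9 sum was 0.0687, 0.0652 and 0.0581 times that of TOC1 under AZD, against 0.243, 0.327 and 0.267 times under DMSO. A ratio within a library does not depend on how that library was scaled, and for both ratios the groups did not overlap. No p is given for these sums, which were built over chosen members, and 3 libraries against 3 cannot give an exact permutation p under 0.1.

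The lower copies also varied together within the DMSO group. DMSO replicate 2 was the highest DMSO library in 9 of the 10 lower copies, the exception being PRR5 Gh_D11G0156. Over all tested genes it was the highest in 33.2%, and among the 24 tested members that were not called it was the highest in 7, while DMSO replicate 1 was the highest in 15. The copies share these 3 libraries, so that the count describes the libraries and is not a set of separate observations.

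The number of lower members depended on the libraries used. It was 2 without AZD replicate 1, 3 without AZD replicate 2, 3 without AZD replicate 3, 9 without DMSO replicate 1, 5 without DMSO replicate 2 and 6 without DMSO replicate 3. In all 6 cases the test was passed by LHY Gh_A11G0926 and by PRR9 Gh_A11G0920 (adjusted p of at most 0.0446 and 0.0489), and in 5 by LHY Gh_A12G1061. Over all tested genes the lower calls fell likewise, to 145, 149 and 190 without AZD replicates 1, 2 and 3, against 1208 with all 6 libraries. They were 692 without DMSO replicate 2 and 267 without DMSO replicate 3. Without DMSO replicate 1, 8 of the 9 lower members were among the 10, RVE8 Gh_A09G1504 was new, and 2 members were higher, RVE6 Gh_A12G2299 and PRR5 Gh_Sca013634G01. In that setting the calls over all 43158 tested genes rose, to 1589 lower and 1814 higher, against 1208 and 817 with all 6 libraries.

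Several members have neighbouring serial numbers in their IDs. The numbers are read here as gene order along a chromosome, a convention of such IDs that the table does not state, and no coordinates are used. PRR9 Gh_A11G0920 and LHY Gh_A11G0926 are 6 numbers apart, and both were lower. Of the 5 IDs between them 3 were tested and none was called (limma, log2 fold changes of −2.07 to 1.33, lowest adjusted p = 0.0762). No other copies of PRR9 and LHY were paired within 10 numbers. PRR7 and RVE8 are 2 numbers apart in Gh_A09G1502 and Gh_A09G1504, with log2 fold changes of −0.56 and −0.90, and also in Gh_D09G1513 and Gh_D09G1515, with −0.11 and −0.79. At a wider spacing, PRR5 Gh_A11G0142 and RVE6 Gh_A11G0102 are 40 numbers apart and had log2 fold changes of −0.99 and 0.35, and PRR5 Gh_D11G0156 and RVE6 Gh_D11G0117 are 39 apart, at −0.73 and −0.10. PRR5 Gh_A12G2229 and RVE6 Gh_A12G2299 are 70 apart, at −0.58 and 0.65. LHY Gh_D11G1068 and TOC1 Gh_D11G1149 are 81 apart, at −1.90 and −0.07. Of the tested copies, 5 of 16 with an A ID and 5 of 17 with a D ID were lower, with median log2 fold changes of −0.57 and −0.30, and the difference was not tested.

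Other genes of the clock were taken from lists of 41 Arabidopsis loci, of which 27 had rows. Together, 12 of 84 tested genes were lower (2.80% of all tested genes were) and none was higher by limma. At an unadjusted p under 0.05, 26 were lower and 14 higher. Counts at this threshold, here and in the next sentence, have no share over all tested genes beside them. None of these 12 calls held without AZD replicate 1, 2 or 3 or without DMSO replicate 3 (limma, 0 lower each, with 24 to 26 lower at an unadjusted p under 0.05), while 3 genes were lower without DMSO replicate 2 and 11 without DMSO replicate 1. Over all 43158 tested genes, 692 were called lower without DMSO replicate 2 and 1589 without DMSO replicate 1.

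The LNK genes encode the coactivators that RVE8 recruits in Arabidopsis, and they were listed with the other REVEILLE genes. All 8 tested REVEILLE genes had negative log2 fold changes (median −0.78), and 4 were lower. Over all tested genes 50.7% were negative and 2.80% were called lower. RVE5 Gh_D11G0971 had 5.88, 5.30 and 5.05 FPKM under AZD, against 10.5, 12.0 and 11.6 FPKM under DMSO (log2 fold change −1.005, adjusted p = 0.0136, limma). RVE5 Gh_A11G0828 had 7.63, 7.48 and 7.41 FPKM under AZD, against 11.7, 10.8 and 10.6 FPKM under DMSO (−0.52, adjusted p = 0.0492). RVE7, a MYB-like factor near RVE1 in sequence, was lower in Gh_A12G2465, with 0.835, 0.608 and 0.820 FPKM under AZD and 2.53, 2.54 and 2.36 FPKM under DMSO (−1.25, adjusted p = 0.0143), and in Gh_A07G0547 (−0.78, adjusted p = 0.0401). Within each of these genes the groups did not overlap. Of all tested genes, 15.5% had every AZD library below every DMSO library.

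All 8 tested LNK genes also had negative log2 fold changes (median −0.95) with groups that did not overlap, and 3 copies of LNK1 were lower. Over all tested genes 50.7% had a value below 0, 15.5% had every AZD library below every DMSO library, and 2.80% were called lower. Gh_A12G0121 had 1.85, 1.44 and 1.95 FPKM under AZD, against 4.19, 4.53 and 4.32 FPKM under DMSO (log2 fold change −1.12, adjusted p = 0.0147, limma). Gh_D13G0536, the most abundant, had 3.96, 2.95 and 3.06 FPKM under AZD, against 6.53, 7.86 and 6.43 FPKM under DMSO (−0.96, adjusted p = 0.0278). The third was Gh_A13G0590 (−0.90, adjusted p = 0.0390).

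The list of evening genes holds the evening complex of ELF3, ELF4 and LUX, the scaffold GI, and the F-box proteins ZTL and FKF1, which mark PRR5 and TOC1 or other partners for breakdown. None of 29 tested genes was called in either direction by limma, and the median log2 fold change was 0.14. At an unadjusted p under 0.05 (limma), 0 were lower and 7 higher, a count with no share over all tested genes beside it. Over all tested genes 2.80% were called lower and 1.89% higher, so that 0 calls among 29 lie near these shares. Every AZD library lay above every DMSO library in 6 of the 29 (14.5% of all tested genes) and below in 2 (15.5%). The most abundant was the ELF4 match Gh_Sca101707G01, at 890.5, 255 and 509.9 FPKM under AZD, against 312, 100.4 and 618 FPKM under DMSO (0.86, adjusted p = 0.541), where libraries of the same treatment differed more than the groups did.

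Among 20 tested clock modifiers, both copies of SKIP, a splicing factor that in Arabidopsis is needed for correct splicing of clock transcripts, were lower. Over all tested genes 2.80% were called lower. Gh_D06G0649 had 6.63, 5.36 and 6.86 FPKM under AZD, against 10.9, 11.3 and 10.5 FPKM under DMSO (log2 fold change −0.76, adjusted p = 0.0341, limma), and Gh_A06G0573 likewise (−0.85, adjusted p = 0.0409). TIC Gh_D10G1504, the most abundant of this list, stood at 14.7 ± 1.02 FPKM under AZD and 15.4 ± 1.24 FPKM under DMSO (SD, n = 3 each, adjusted p = 0.776).

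Among 19 tested output genes, 3 were lower (2.80% of all tested genes were). CDF2, a DOF repressor of flowering genes whose protein is removed in the afternoon in Arabidopsis, had 1.59, 2.33 and 1.98 FPKM under AZD and 4.23, 6.10 and 4.68 FPKM under DMSO in Gh_A11G0628 (log2 fold change −1.15, adjusted p = 0.0279, limma) and was also lower in Gh_D11G0738 (−1.12, adjusted p = 0.0352). PIF5, a bHLH factor of elongation growth, was lower in Gh_A09G0075 (−0.87, adjusted p = 0.0340). GRP7 Gh_A13G0294, an RNA-binding protein with an evening peak in Arabidopsis and the most abundant output gene, averaged 54.9 ± 5.73 FPKM under AZD and 39.1 ± 8.32 FPKM under DMSO (SD, n = 3 each, adjusted p = 0.190).

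**Figure D4:**
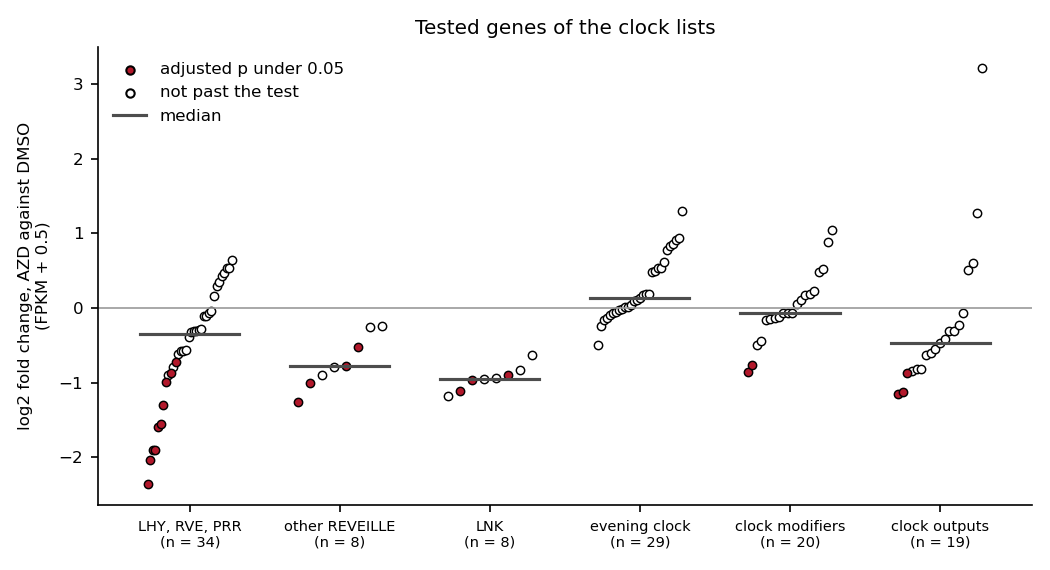
Log2 fold change (y axis, AZD against DMSO, on the log2(FPKM + 0.5) scale) of each tested gene in the clock lists, sorted within its list, with a line at the median and filled points for genes past the test. The medians are −0.35 for the LHY, RVE and PRR factors, −0.78 for the other REVEILLE genes, −0.95 for LNK and 0.14 for the evening genes, in which no gene was called. Over all tested genes 2.80% were called lower and 1.89% higher. The highest point, at 3.22, is the COL1 match Gh_Sca210283G01, which was listed at 0 under DMSO and was not past the test.

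The genes whose pattern was most like that of LHY were found by Pearson's r, over the 6 libraries, with the mean log2(FPKM + 0.5) of the 7 LHY copies. Among 36224 other genes that averaged 1 FPKM or more and carried a matched locus, the highest values were those of Gh_D01G0164 (AT4G03420, r = 0.999), Gh_A11G0230 (AT1G64500, r = 0.998), Gh_D03G0212 (AT3G50330, HEC2, r = 0.997), Gh_A03G0252 (AT5G60790, r = 0.996) and Gh_D02G0540 (AT4G15900, PRL1, r = 0.996). HEC2 is a bHLH factor, and its match had 15.6, 15.4 and 15.2 FPKM under AZD, against 34.8, 42.0 and 32.5 FPKM under DMSO. Across only 6 libraries in 2 groups such values are common: 770 of the genes reached an r of 0.95. They are a description of these libraries and carry no test.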

How the data were processed

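RNA of cotton seedlings was sequenced as 6 libraries, 3 labelled AZD and 3 labelled DMSO. The authors mapped the reads with TopHat2, assembled them with Cufflinks and compared groups with Cuffdiff, and deposited FPKM per gene and library, which were used as deposited. Tool versions, genome build and any rescaling were not given in the sources used here. Library kits differ between the methods (directional NEB) and the labels (TruSeq). All 6 value columns were used. Of the deposited gene IDs 0 occur in the reference gene table, so names come from the deposited Arabidopsis locus (given for 64063 genes), and no sequence is shown.

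Genes averaging 0.5 FPKM or more were tested on log2(FPKM + 0.5) with limma 3.58.1 (trend on, R 4.3.3), AZD against DMSO, two-sided, with Benjamini-Hochberg adjustment over all tested genes and a threshold of 0.05, after the fit was tested on simulated data. FPKM are not counts, so no count model was used. Sums and ratios were computed with Python 3.11.15 and pandas 2.3.3. Values were given for every copy past the test and the most abundant copy of each locus, and other copies are given by range or were picked after their values were seen. In the other clock lists, genes past the test and the most abundant gene were named. The members and lists were chosen with earlier results of these data known. The alternatives were pseudocounts of 0.1 and 1, no filter or a minimum mean of 1 FPKM, median-of-ratios scaling, quantile normalization, no trend, the replicate number as a block, each library left out with the same genes tested, and the log2 ratio of group means.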

Additional observations from a re-analysis of the deposited data

How the results depend on the processing

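The 10 lower members stayed at 9 or 10 under either pseudocount, a mean of at least 1 FPKM, both scalings and limma without the trend. In these settings 2.33% to 3.39% of all tested genes were called lower. The median-of-ratios factors were 0.993 to 1.03, so that this scaling could change little, here or in the locus sums. Without a filter on low values, which adds genes to the adjustment, 6 members and 4 other clock genes were lower. In that setting 463 of 70478 tested genes were called lower. With any 1 library left out, 2 to 9 members and 0 to 11 other clock genes were lower, against 145 to 1589 over all tested genes. In these settings 0 to 2 members and 0 to 2 other clock genes were higher. The counts of 2 higher came without DMSO replicate 1, where 1814 of 43158 tested genes were called higher. Quantile normalization called 1 other clock gene higher. LHY Gh_A07G1719 turned to 0.14 without AZD replicate 3 and to 0.06 without DMSO replicate 2, in a range that began at −0.61. The cause was not tested. With the replicate number as a block, 0 members and 0 other clock genes were lower (limma, with 16 and 27 at an unadjusted p under 0.05 and 72 genes called in all). The 16 and 27 have no share over all tested genes beside them. Whether the numbers pair the libraries is not stated in the sources used here. Same-numbered libraries had correlations of 0.02, −0.04 and −0.09 of their deviations from the group means, and no library correlated best with its own number. With 3 libraries a group, such correlations cannot exclude a shared batch. The log2 ratios of the 7 locus sums moved by less than the spread between libraries under median-of-ratios scaling and with any 1 library left out, but that of PRR5 changed sign, at 0.09 without DMSO replicate 1 against −0.11 with all libraries.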
